A study of Mus musculus with 12 samples.

Results

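7 genes that mark lymphatic endothelium were followed through primary lung endothelial cells of mice that lack the kinases MLK2 and MLK3, and of wild type mice, at low and normal oxygen. The genes are Lyve1, Prox1, Reln, Pdpn, Nts, Mmrn1 and Ccl21a. They were taken by official symbol from the deposited table, which gave 13 transcripts under 8 gene identifiers of 23422 in all, and the values of the transcripts of an identifier were summed. The values are FPKM, fragments scaled by transcript length and library size, so levels are per length. The filter of a mean of at least 1 FPKM was passed by 7 of the 8 identifiers, which are among 11378 tested genes, and the eighth, a second identifier of Ccl21a, was listed at 0 in every library. 4 groups of 3 libraries each were compared. They were Mlk2-/-Mlk3-/- double knockout (DKO) cells at 1% O2 for 90 min, DKO cells at 21% O2, C57BL/6J wild type (WT) cells at 1% O2 for 90 min, and WT cells at 21% O2. The cells were monolayers of primary lung endothelial cells grown in serum with endothelial mitogen and heparin, and age, sex and the number of animals are not given in the labels. The labels do not say that libraries came from separate cultures or animals, so p-values measure the spread between these libraries only, which may be technical.

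Lymphatic endothelium lines the vessels that return tissue fluid and immune cells to the blood, and it arises mostly from venous endothelium under the homeobox factor PROX1, which turns on and maintains the lymphatic program. LYVE1 is a hyaluronan receptor of lymphatic capillaries, podoplanin (Pdpn) a membrane glycoprotein that activates platelets through CLEC-2, and CCL21 the chemokine that draws dendritic cells into lymphatics through CCR7. Reelin (Reln) is a secreted glycoprotein best known from neuronal migration, multimerin 1 (Mmrn1) a secreted protein first described in platelets and endothelium, and neurotensin (Nts) a peptide of gut and brain that is also made in lymphatic endothelium. MLK2 (Map3k10) and MLK3 (Map3k11) are mixed lineage kinases that act upstream of JNK and p38.

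The lymphatic genes sat beside most general endothelial markers. Of 14 general endothelial markers 13 passed the filter, with mean levels of 582 FPKM for Pecam1, 153 FPKM for Cdh5 and 1263 FPKM for Emcn. The exception was Vwf, at a mean of 0.119 FPKM. Averaged over both oxygen levels, 5 of the 13 were higher and 1 lower in DKO cells, where 8.89% of all tested genes were higher and 10.2% lower. Lyve1 stood 323rd and Mmrn1 398th among the tested genes by mean level. In bulk RNA, fewer lymphatic cells and less RNA per lymphatic cell cannot be told apart. The targeted gene Map3k10 had 1.02 to 1.34 FPKM in DKO cells in hypoxia and 0.131 to 0.169 FPKM in DKO cells in normoxia, against 16.6 to 19.1 FPKM in WT cells in hypoxia and 18.3 to 19.2 FPKM in WT cells in normoxia. Map3k11 had 10.9 to 12.2 FPKM in DKO cells and 31.9 to 36.4 FPKM in WT cells, so RNA of this gene was still read in DKO cells. Depth was estimated at 21300000 to 26000000 fragments a library. Summed levels of 10 macrophage markers were 65.0 to 71.3 FPKM in DKO cells in hypoxia, 65.4 to 78.5 FPKM in DKO cells in normoxia, 31.8 to 33.4 FPKM in WT cells in hypoxia and 23.4 to 31.4 FPKM in WT cells in normoxia. Most of that sum was the lysozyme gene Lyz2, and 6 of the 10 were under 0.5 FPKM, among them Adgre1 at 0.164 FPKM and Csf1r at 0.266 FPKM. The 12 fibroblast and mural markers summed to 31.8 to 37.6 FPKM in DKO cells in hypoxia, 31.9 to 32.9 FPKM in DKO cells in normoxia, 36.9 to 48.6 FPKM in WT cells in hypoxia and 30.2 to 39.3 FPKM in WT cells in normoxia, and 8 of the 12 were under 0.5 FPKM. The 4 that were tested all moved with genotype, averaged over both oxygen levels. Higher in DKO cells were Dcn (log2 fold change 0.73, limma adjusted p = 8.01e-06), Acta2 (0.68, limma adjusted p = 0.000259) and Col3a1 (0.39, limma adjusted p = 0.0307), and lower was Tagln, the most abundant of them (-0.46, limma adjusted p = 0.0015). The 8 alveolar epithelial markers summed to 4.57 to 5.81 FPKM in DKO cells in hypoxia, 3.13 to 3.90 FPKM in DKO cells in normoxia, 3.63 to 4.00 FPKM in WT cells in hypoxia and 2.90 to 3.62 FPKM in WT cells in normoxia. The 5 platelet markers summed to 7.25 to 8.60 FPKM in DKO cells in hypoxia, 5.22 to 7.00 FPKM in DKO cells in normoxia, 5.04 to 8.13 FPKM in WT cells in hypoxia and 4.47 to 5.33 FPKM in WT cells in normoxia. The 6 mesothelial markers summed to 1.87 to 2.18 FPKM in DKO cells in hypoxia, 1.28 to 2.09 FPKM in DKO cells in normoxia, 3.99 to 5.27 FPKM in WT cells in hypoxia and 2.08 to 2.49 FPKM in WT cells in normoxia, with the defining markers Msln, Upk3b and Wt1 at means of 0.0249, 0.0247 and 0.00528 FPKM. The part of these other markers in the results was not tested.

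Lyve1 had no promoter entry, although its genotype contrast was clearer than that of Pdpn. Nts differed by genotype and oxygen, Prox1 mainly by oxygen, and Pdpn in a direction of its own. The sequences upstream of Nts, Prox1 and Pdpn are shown as examples. They are the 250 bases before the start site in RefSeq (GRCm38.p6), 5′ to 3′ on the strand of the gene, at chr10:102490419-102490668 for Nts, chr1:190170828-190171077 for Prox1 and chr4:143299565-143299814 for Pdpn, all on the minus strand. Capitals mark the motifs found.
Nts: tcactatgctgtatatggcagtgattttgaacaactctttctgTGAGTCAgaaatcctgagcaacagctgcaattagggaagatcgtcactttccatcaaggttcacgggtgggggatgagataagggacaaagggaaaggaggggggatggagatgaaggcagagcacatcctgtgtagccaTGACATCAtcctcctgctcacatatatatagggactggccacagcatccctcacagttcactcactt
Prox1: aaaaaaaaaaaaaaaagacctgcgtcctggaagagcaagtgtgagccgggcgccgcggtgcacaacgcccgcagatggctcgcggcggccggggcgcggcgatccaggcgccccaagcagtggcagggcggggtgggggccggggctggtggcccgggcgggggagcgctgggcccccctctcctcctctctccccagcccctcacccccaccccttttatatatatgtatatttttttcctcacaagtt
Pdpn: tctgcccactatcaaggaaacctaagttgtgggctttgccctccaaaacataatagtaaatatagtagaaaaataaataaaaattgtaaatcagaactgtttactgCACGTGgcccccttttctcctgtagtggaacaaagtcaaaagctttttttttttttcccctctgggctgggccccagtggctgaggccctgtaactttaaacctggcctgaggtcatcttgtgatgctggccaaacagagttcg
5 motifs were searched on both strands. The AP-1 element TGAGTCA (or TGACTCA) was found once, in Nts at base -207, and 4.46% of 32851 RefSeq promoters of the same length hold it. The cyclic AMP response element TGACGTCA, in 1.55% of promoters, was in none of the windows. A variant of it, TGACATCA (or TGATGTCA), stood at base -67 of Nts and is held by 2.93% of promoters. The RefSeq start of Nts lies 68 bases inside the GENCODE transcript, so this match falls at the start of that transcript and not upstream of it. The core of the hypoxia response element, ACGTG (or CACGT), was read on both strands of one CACGTG in Pdpn, at base -144, and another lay in Reln at base -71, and it is held by 16.6% of promoters. Its form GCGTG (or CACGC), in 28.2% of promoters, was found in Reln at base -152 and in Mmrn1 at base -241. The Prox1 window shown, which lies 113 bases from the start of its main transcript, a second Prox1 window and the Ccl21a window held none of the 5. The rat Nts promoter is known for AP-1 and cyclic AMP response elements near its start.

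Between genotypes, neurotensin and Lyve1 fell in DKO cells at both oxygen levels, and Pdpn rose in normoxia. Prox1 was called lower in DKO cells in hypoxia and averaged over both oxygen levels. In normoxia it was lower too but did not pass. Between oxygen levels, Prox1 and Nts rose in hypoxia in both genotypes. Calls rest on limma fits of log2(FPKM + 1) over all 11378 tested genes with a Benjamini-Hochberg adjusted p under 0.05. For DKO against WT in hypoxia 0 of 7 members were higher and 3 lower, where 16.1% of all tested genes were called, 7.68% higher and 8.42% lower. For DKO against WT in normoxia 1 was higher and 2 lower, where 8.16% of all tested genes were called, 3.84% higher and 4.32% lower. Averaged over both oxygen levels, 1 was higher and 4 lower in DKO cells, where 19% of all tested genes were called, 8.89% higher and 10.2% lower. For hypoxia against normoxia 2 members were higher in DKO cells, where 39.3% of all tested genes were called, 19.6% higher and 19.6% lower, and 3 in WT cells, where 20.8% were called, 10.5% higher and 10.4% lower. Averaged over both genotypes 2 were higher in hypoxia, where 45.6% were called, 22.7% higher and 22.9% lower. The median log2 fold change of DKO against WT, averaged over both oxygen levels, was -0.30 over the members and -0.01 over all tested genes. Since the members were chosen with earlier results of these data known, counts and medians describe them and do not test them as a set. For the difference between the 2 hypoxia responses 0 members were called, as were 0.193% of all tested genes. Groups of 3 libraries with no overlap were found for 18.4% of tested genes that were lower in DKO cells in hypoxia, for 14.1% that were lower and 11.6% that were higher in DKO cells in normoxia, for 25.6% that were higher and 24.6% that were lower in hypoxia in DKO cells, and for 18.8% that were higher in hypoxia in WT cells. The comparisons of one genotype or one oxygen level share libraries with each other.

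**Figure D1:**
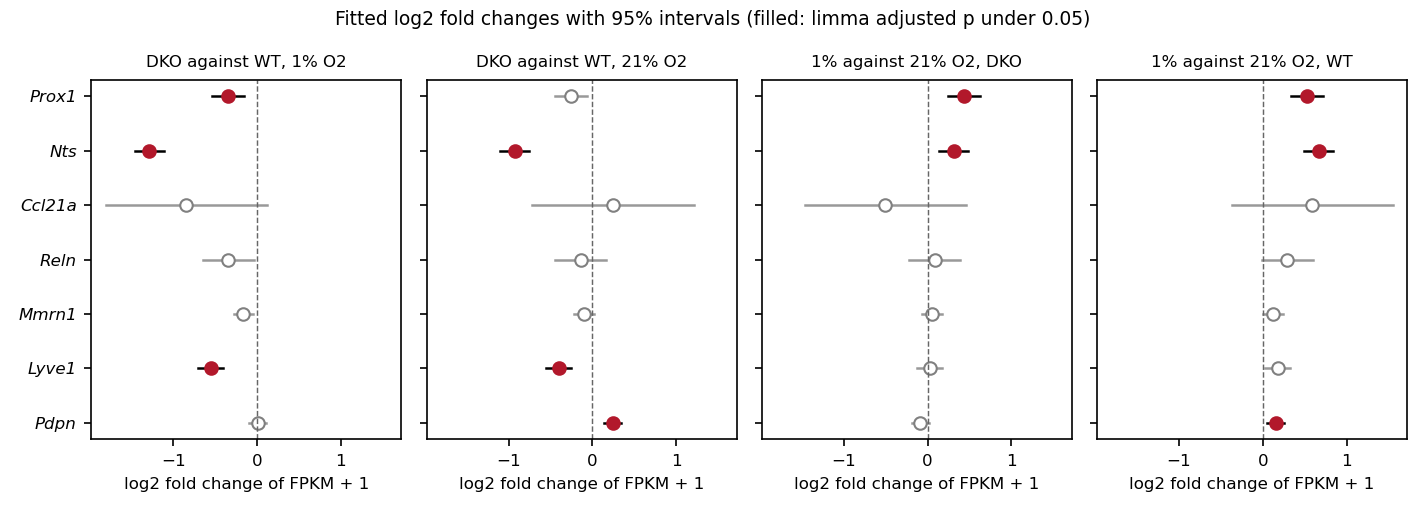
Fitted log2 fold changes (horizontal axis, log2 of FPKM + 1) of the 7 genes, listed on the vertical axis, in 4 comparisons, with 95% intervals; filled points passed the limma threshold. Nts lies left of 0 in both comparisons of DKO with WT and right of 0 in both comparisons of hypoxia with normoxia.

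Prox1 (ENSMUSG00000010175, chr1:190118035-190170714, minus strand) encodes the transcription factor that sets lymphatic identity. It had 28.7, 28.0 and 25.1 FPKM in DKO cells in hypoxia, 22.0, 19.3 and 18.5 FPKM in DKO cells in normoxia, 34.7, 39.4 and 30.9 FPKM in WT cells in hypoxia and 24.5, 24.8 and 22.5 FPKM in WT cells in normoxia. The groups did not overlap and ran from WT hypoxia through DKO hypoxia and WT normoxia to DKO normoxia, and all 6 hypoxia libraries lay above all 6 normoxia libraries, as for 9.34% of tested genes. Hypoxia averaged 137% of normoxia in DKO cells (27.3 ± 1.91 against 20.0 ± 1.83 FPKM, SD, n = 3 each), with a log2 fold change of 0.43 and a limma adjusted p of 0.00214. In WT cells hypoxia averaged 146% of normoxia (35.0 ± 4.26 against 23.9 ± 1.23 FPKM), with a log2 fold change of 0.52, a 95% interval of 0.33 to 0.71 and a limma adjusted p of 0.00182. The 2 responses differed by -0.09 on the log2 scale, with an interval of -0.36 to 0.18 (limma adjusted p = 0.764). DKO against WT gave -0.34 in hypoxia (limma adjusted p = 0.0195) and -0.25 in normoxia (limma adjusted p = 0.106), and -0.30 averaged over both (limma adjusted p = 0.00533). The averaged call held in all 21 alternatives. The call in hypoxia was lost without the third DKO hypoxia library (limma adjusted p = 0.0764), without the second WT hypoxia library (0.0772) and with the main transcript in place of the gene sum (0.0543). That transcript carried 93.4 to 97.7% of the Prox1 signal. The antisense genes Prox1os and Gm28172 overlap Prox1, and since counting by strand is not stated, their reads cannot be told apart from those of Prox1.

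Nts (ENSMUSG00000019890, chr10:102481756-102490486, minus strand), the precursor of neurotensin and neuromedin N, had the largest genotype difference of the 7 genes. It had 19.0, 20.8 and 15.8 FPKM in DKO cells in hypoxia, 14.1, 15.6 and 14.3 FPKM in DKO cells in normoxia, 44.7, 48.6 and 46.1 FPKM in WT cells in hypoxia and 29.3, 28.0 and 29.2 FPKM in WT cells in normoxia. Every DKO library lay below every WT library, which held for 2.78% of tested genes, and the 4 groups did not overlap, although the lowest DKO library in hypoxia (15.8 FPKM) lay close to the highest in normoxia (15.6 FPKM). In hypoxia DKO cells averaged 39.9% of WT cells (18.5 ± 2.53 against 46.4 ± 1.98 FPKM, SD, n = 3 each). The log2 fold change was -1.29, the 12th lowest of 11378, with an interval of -1.46 to -1.12 and a limma adjusted p of 1.37e-06. In normoxia DKO cells averaged 50.9% of WT cells (14.7 ± 0.806 against 28.8 ± 0.705 FPKM), a log2 fold change of -0.93 with an interval of -1.10 to -0.76 and a limma adjusted p of 2.15e-05. Nts also rose with low oxygen, to 126% of normoxia in DKO cells (log2 fold change 0.31, limma adjusted p = 0.00822) and to 161% in WT cells (log2 fold change 0.67, limma adjusted p = 0.000185). The response in DKO cells was lower than that in WT cells by a log2 difference of -0.36, with an unadjusted 95% interval of -0.60 to -0.12, and it did not pass the adjusted threshold (limma adjusted p = 0.149). The other calls of Nts held in every alternative run. Nts has a single transcript of 1248 bases here, for which 337 to 1165 fragments a library were estimated.

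Of the other secreted products, Mmrn1 was called in the averaged genotype comparison, and Reln and Ccl21a in none. Mmrn1 (ENSMUSG00000054641, chr6:60924976-60989378, plus strand) had 258, 261 and 229.8 FPKM in DKO cells in hypoxia, 244, 249.9 and 227 FPKM in DKO cells in normoxia, 284, 287 and 267 FPKM in WT cells in hypoxia and 249, 261 and 259.5 FPKM in WT cells in normoxia. The DKO libraries lay below the WT libraries in hypoxia, and they overlapped in normoxia. The log2 fold change of DKO against WT was -0.16 in hypoxia (limma adjusted p = 0.0584), -0.10 in normoxia (limma adjusted p = 0.333) and -0.13 averaged over both (limma adjusted p = 0.0314). The averaged call was lost in 9 of 21 alternatives, 6 of which each left out 1 library, with limma adjusted p up to 0.0765. These were the third DKO library at either oxygen level, the first and the second WT hypoxia libraries, and the second and the third WT normoxia libraries. Hypoxia against normoxia gave 0.05 in DKO cells (limma adjusted p = 0.447) and 0.12 in WT cells (limma adjusted p = 0.129).

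Reln (ENSMUSG00000042453, chr5:21884454-22344702, minus strand) had 12.2, 13.0 and 8.95 FPKM in DKO cells in hypoxia, 10.6, 11.2 and 9.92 FPKM in DKO cells in normoxia, 15.7, 16.3 and 12.0 FPKM in WT cells in hypoxia and 11.5, 13.5 and 10.3 FPKM in WT cells in normoxia. The third library of each hypoxia group was well below the other two, and all neighbouring groups overlapped. Pseudogenes, the antisense genes Gm10475 and Gm16110 and the unclassified Gm19666 overlap Reln, and reads from them cannot be told apart from its own. No comparison passed: DKO against WT gave -0.35 in hypoxia (limma adjusted p = 0.119) and -0.14 in normoxia (limma adjusted p = 0.626), and hypoxia against normoxia gave 0.08 in DKO cells (limma adjusted p = 0.672) and 0.29 in WT cells (limma adjusted p = 0.162). Without the third WT hypoxia library the difference between DKO and WT in hypoxia was -0.48 and passed (limma adjusted p = 0.0465). The third DKO hypoxia library was low as well, and leaving it out makes this difference smaller. Over 16 alternatives the difference ran from -0.48 to -0.20, with limma adjusted p from 0.0104 to 0.371. It also passed with the replicate block.

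Ccl21a (ENSMUSG00000094686, chr4:42772860-42773993, minus strand) was near the detection limit. It had 1.96, 1.81 and 0.610 FPKM in DKO cells in hypoxia, 2.00, 3.07 and 2.12 FPKM in DKO cells in normoxia, 4.71, 4.50 and 1.48 FPKM in WT cells in hypoxia and 0.471, 4.60 and 1.77 FPKM in WT cells in normoxia. An estimated 7 to 67 fragments a library lay behind these values. The WT libraries in normoxia alone ran from 0.471 to 4.60 FPKM. The genotypes overlapped at both oxygen levels, and the highest DKO library in hypoxia (1.96 FPKM) lay just below the lowest in normoxia (2.00 FPKM). No comparison passed, with a DKO against WT log2 fold change of -0.85 in hypoxia (limma adjusted p = 0.227) and of 0.25 in normoxia (limma adjusted p = 0.803). Its near-identical copies Ccl21b and Ccl21c were listed at 0, so how reads were divided among the copies is uncertain, and the gene 4930578G10Rik overlaps it on the other strand.

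**Figure D2:**
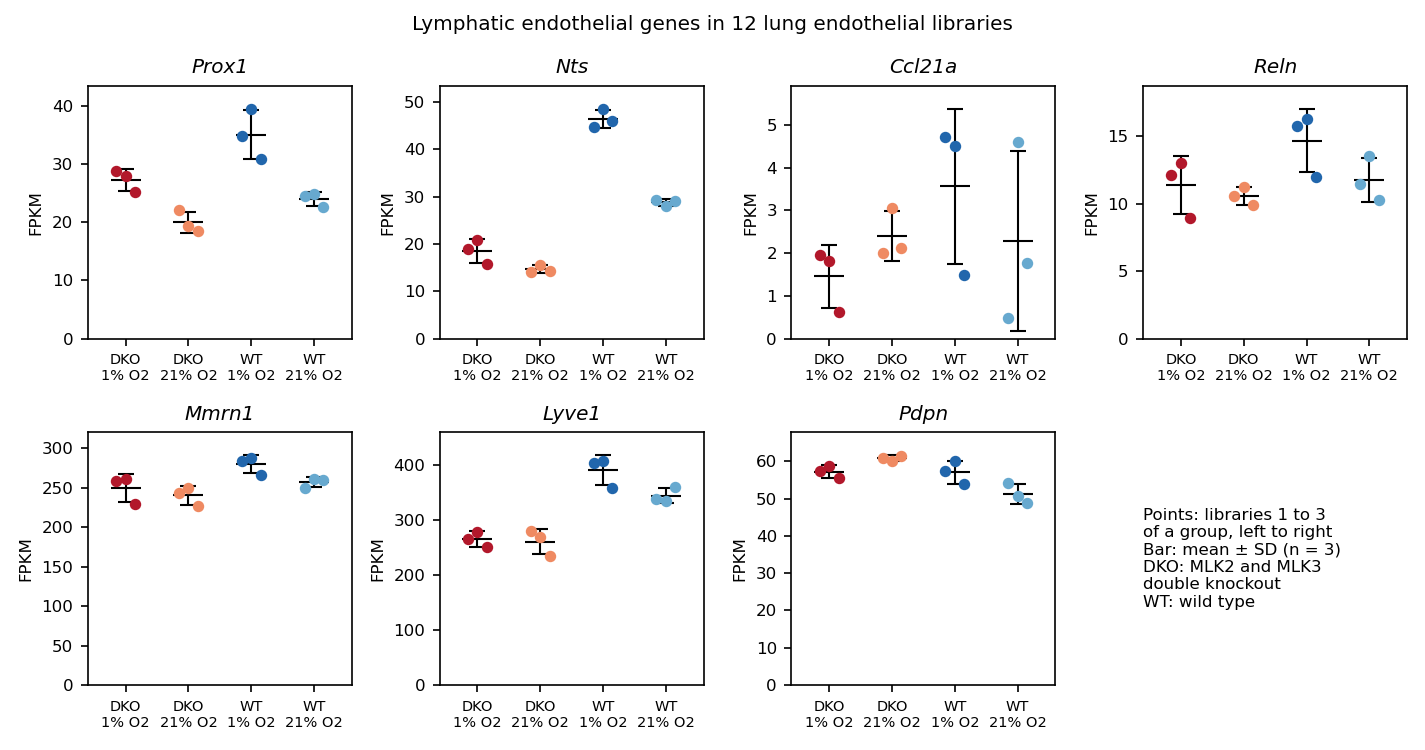
Level of each gene in FPKM (vertical axis, from 0) in the 12 libraries by group (horizontal axis); points are libraries and bars the mean ± SD (n = 3). For Nts and Lyve1 all 6 DKO libraries lie below all 6 WT libraries, as for 2.78% of tested genes. For Prox1 all 6 hypoxia libraries lie above all 6 normoxia libraries, as for 9.34% of tested genes.

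Of the 2 membrane proteins, Lyve1 was lower in DKO cells and Pdpn was not. Lyve1 (ENSMUSG00000030787, chr7:110850607-110863239, minus strand) had 266, 279 and 250.3 FPKM in DKO cells in hypoxia, 279, 269 and 235 FPKM in DKO cells in normoxia, 404, 408 and 359 FPKM in WT cells in hypoxia and 339, 335 and 359 FPKM in WT cells in normoxia. All 6 DKO libraries lay below all 6 WT libraries, as for 2.78% of tested genes, while the hypoxia and normoxia libraries overlapped in each genotype. DKO cells averaged 67.9% of WT cells in hypoxia (265 ± 14.3 against 390.3 ± 27.2 FPKM, SD, n = 3 each), with a log2 fold change of -0.56 and a limma adjusted p of 0.000262. In normoxia they averaged 75.7% (261 ± 23.3 against 345 ± 12.9 FPKM), with a log2 fold change of -0.40 and a limma adjusted p of 0.00341. Hypoxia against normoxia did not pass in DKO cells (0.02, limma adjusted p = 0.805) or in WT cells (0.18, limma adjusted p = 0.0887), where it passed without the third WT hypoxia library (0.24, limma adjusted p = 0.0351). Lyve1 is the only one of the 7 genes on a chromosome of a targeted gene, 83.2 Mb from Map3k10 on chromosome 7.

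Pdpn (ENSMUSG00000028583, chr4:143267431-143299564, minus strand) had 57.4, 58.8 and 55.5 FPKM in DKO cells in hypoxia, 60.9, 60.0 and 61.5 FPKM in DKO cells in normoxia, 57.5, 60.0 and 53.9 FPKM in WT cells in hypoxia and 54.1, 50.8 and 48.8 FPKM in WT cells in normoxia. The DKO libraries in normoxia lay above all of the WT libraries in normoxia, and in hypoxia the genotypes overlapped. In normoxia the means were 60.8 ± 0.779 FPKM in DKO cells and 51.2 ± 2.73 FPKM in WT cells (SD, n = 3 each), a log2 fold change of 0.24 with a limma adjusted p of 0.00700. In hypoxia they were 57.3 ± 1.65 FPKM in DKO cells and 57.1 ± 3.09 FPKM in WT cells, a log2 fold change of 0.00 with an interval of -0.10 to 0.11. The DKO libraries in hypoxia lay below those in normoxia. Hypoxia against normoxia gave -0.09 in DKO cells (limma adjusted p = 0.170) and 0.15 in WT cells (limma adjusted p = 0.0373). The WT call was lost in 9 of 16 alternatives, among them those without the first or the second WT hypoxia library and without the second or the third WT normoxia library, with limma adjusted p up to 0.156. The 2 responses differed by -0.24 on the log2 scale (unadjusted interval -0.38 to -0.10), which did not pass (limma adjusted p = 0.118). With the main transcript alone, which carried 89.5 to 96.1% of the signal, the genotype difference in normoxia missed the threshold (limma adjusted p = 0.0549). Averaged over both oxygen levels Pdpn was higher in DKO cells by 0.12 (limma adjusted p = 0.0213), a call lost with the main transcript alone (0.121), without the second DKO hypoxia library (0.0525) and without the third WT normoxia library (0.0517).

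Within groups, some of the genes varied together from library to library and others little. The third DKO hypoxia library was the lowest of its group for 7 of 7 genes and the third WT hypoxia library for 6 of 7, all except Nts. The second WT hypoxia library was the highest of its group for 6 genes and the second DKO hypoxia library for 5. Such ranks were not counted over all tested genes, so they are not read as particular to these genes. After the group means were taken off, Pearson's r over the 12 libraries ran from 0.12 (Pdpn and Ccl21a) to 0.83 (Reln and Mmrn1) over the 21 pairs of genes, with a median of 0.60. It was 0.28 between Pdpn and Mmrn1 and between Lyve1 and Pdpn, 0.82 between Lyve1 and Mmrn1, and 0.75 between Prox1 and Reln. The same r was not taken for pairs of other genes, and the cause of these values was not tested. With the third library of both hypoxia groups left out, 6 of 7 genes were called higher in hypoxia in WT cells in place of 3, and 5 in place of 2 averaged over both genotypes. Of all tested genes, 19.5% were called in WT cells and 42% averaged over both genotypes with the same libraries left out, in either direction. These libraries were left out after the data were seen, because the genes were low in them, so the added calls follow from that choice and support nothing.

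**Figure D3:**
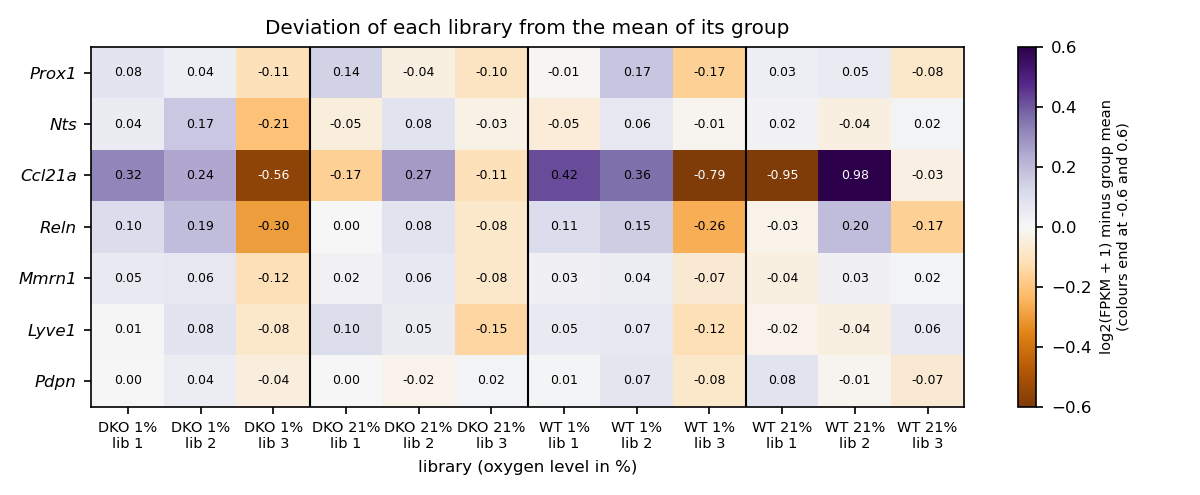
Deviation of each library (horizontal axis) from the mean of its group in log2(FPKM + 1) for each gene (vertical axis), printed in each cell and coloured from brown (below) to purple (above). The third library of DKO hypoxia is below its group mean for 7 of 7 genes.

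Of 22 other genes of lymphatic development and signalling 16 passed the filter. Averaged over both oxygen levels 2 were higher, 6 lower and 8 not called in DKO cells, with a median log2 fold change of -0.13. In that comparison 8.89% of all tested genes were called higher and 10.2% lower. Itga9, the integrin chain needed for lymphatic valves, had 7.28, 7.62 and 5.92 FPKM in DKO cells in hypoxia, 6.20, 6.48 and 5.29 FPKM in DKO cells in normoxia, 12.0, 12.2 and 11.0 FPKM in WT cells in hypoxia and 8.25, 9.10 and 9.49 FPKM in WT cells in normoxia. All 6 DKO libraries lay below all 6 WT libraries, as for 2.78% of tested genes, with an averaged log2 fold change of -0.60 (limma adjusted p = 5.2e-05). Nfatc1, a transcription factor of lymphatic patterning and valves, had 3.55 to 5.28 FPKM in DKO cells and 6.34 to 8.03 FPKM in WT cells, with an averaged log2 fold change of -0.54 (limma adjusted p = 0.000138). Emilin1, a matrix protein of lymphatic anchoring, was higher in DKO cells, at 69.8 to 75.9 FPKM against 59.7 to 63.3 FPKM in WT cells (log2 fold change 0.24, limma adjusted p = 3.14e-05). Nrp2, the co-receptor of VEGF-C, was lower in DKO cells by an averaged log2 fold change of -0.14 (limma adjusted p = 0.0455).

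Averaged over both genotypes, 4 of these 16 genes were higher and 2 lower in hypoxia, with a median log2 fold change of 0.04. Among all tested genes 22.7% were called higher and 22.9% lower. Flt4, the VEGF-C receptor VEGFR3, had 73.9 to 79.7 FPKM in hypoxia and 57.4 to 68.5 FPKM in normoxia in DKO cells, and 75.5 to 85.6 FPKM in hypoxia and 63.2 to 71.2 FPKM in normoxia in WT cells. Its log2 fold change was 0.29 (limma adjusted p = 0.000506), and that of Nrp2 was 0.25 (limma adjusted p = 0.000584). Tbx1, a T-box factor that regulates Flt4, was lower in hypoxia by a log2 fold change of -0.40 (limma adjusted p = 0.000295). None of the 16 passed for the difference between the hypoxia responses, where 0.193% of all tested genes did. The genes of highest mean level, Angpt2 at 1347 FPKM and Tie1 at 293 FPKM, belong to angiopoietin signalling in endothelium of all kinds.

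Of 24 partners of the 7 proteins (receptors, processing enzymes and relatives) 12 passed the filter. In DKO cells, averaged over both oxygen levels, 1 was higher and 2 lower, where 8.89% of all tested genes were higher and 10.2% lower. Stab2, a scavenger receptor that binds hyaluronan as LYVE1 does, had 3.72 to 4.88 FPKM in DKO cells and 2.12 to 2.80 FPKM in WT cells (log2 fold change 0.56, limma adjusted p = 4.83e-05). Sort1, which encodes sortilin, a receptor that binds neurotensin, had 2.94 to 4.13 FPKM in DKO cells and 3.85 to 5.13 FPKM in WT cells (log2 fold change -0.36, limma adjusted p = 0.000756). Ezr, which encodes the ezrin that ties podoplanin to actin, was lower by -0.26 (limma adjusted p = 0.0042). In hypoxia, averaged over both genotypes, 4 partners were higher and 2 lower, where 22.7% of all tested genes were higher and 22.9% lower. Vldlr, a receptor of reelin, had 31.1 to 36.3 FPKM in hypoxia and 18.7 to 22.7 FPKM in normoxia in DKO cells, and 35.6 to 42.4 FPKM in hypoxia and 20.8 to 23.6 FPKM in normoxia in WT cells (log2 fold change 0.72, limma adjusted p = 4.38e-06). Tmem2, a cell-surface protein linked to hyaluronan breakdown, was higher in hypoxia by 0.21 (limma adjusted p = 7.92e-05), and Msn, which encodes moesin, by 0.17 (limma adjusted p = 0.0064). The G protein-coupled neurotensin receptors were near 0, with means of 0.0105 FPKM for Ntsr1 and 0.00572 FPKM for Ntsr2, as were the CCL21 receptor Ccr7 (0.0207 FPKM) and the reelin adaptor Dab1 (0.0113 FPKM), which are named for their roles and with their values known. The most abundant partners were Mmrn2, the endothelial relative of Mmrn1, at 324 FPKM and the proprotein convertase gene Pcsk6 at 215 FPKM.

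**Figure D4:**
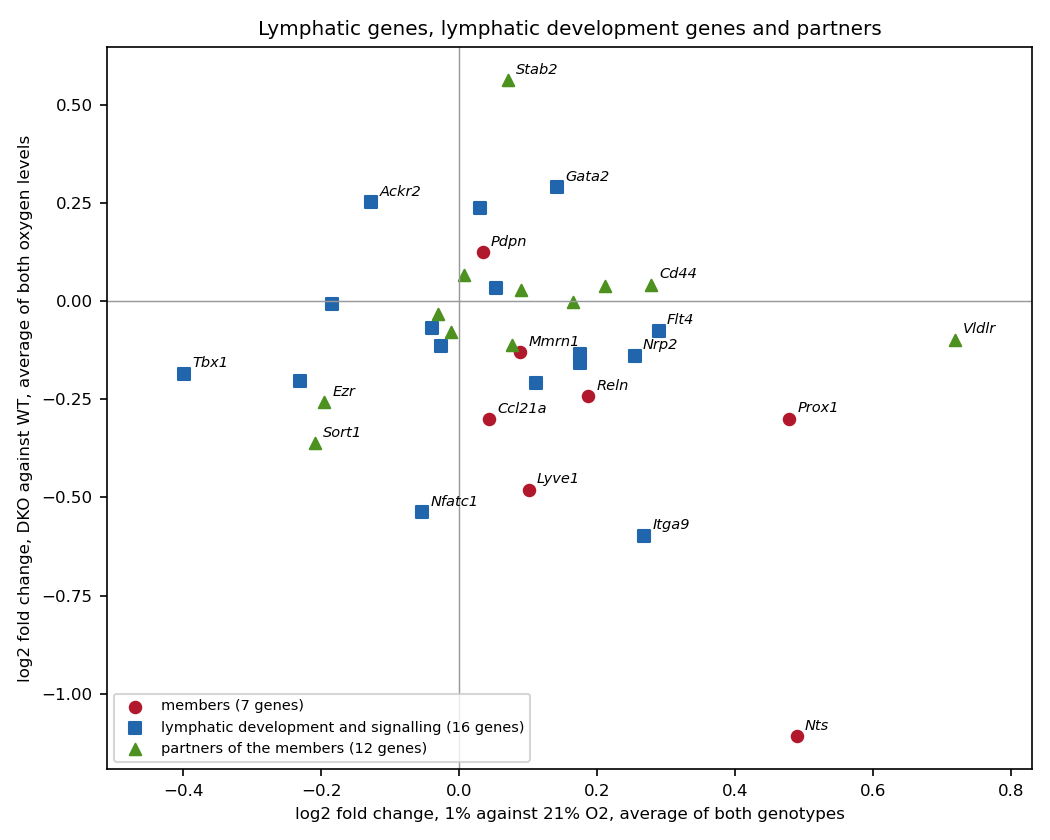
Averaged log2 fold change of hypoxia against normoxia (horizontal axis) and of DKO against WT (vertical axis), both in log2(FPKM + 1), for the 7 genes (circles), lymphatic development genes (squares) and partners (triangles). Nts lies lowest, at -1.11 on the vertical axis and 0.49 on the horizontal axis.

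The tested genes whose pattern over the 12 libraries was most like that of Nts were Psmd8 (Pearson's r 0.978), Fgl2 (0.978) and Itga9 (0.977). Psmd8, a proteasome subunit gene, lies 1.4996 Mb from Map3k10, and Fgl2, which encodes a fibrinogen-like protein, averaged 8.10 FPKM in DKO cells in hypoxia, 7.86 FPKM in DKO cells in normoxia, 17.3 FPKM in WT cells in hypoxia and 12.7 FPKM in WT cells in normoxia. Nearest to Prox1 were Gab2 (0.974), the cadherin gene Cdh13 (0.969) and the podocalyxin gene Podxl (0.966). Nearest to Lyve1 were Pkd2l1 (0.980), Igf2bp2 (0.969) and Cd24a (0.968), and nearest to Pdpn was the cathepsin gene Ctsb (0.924). These values describe 12 libraries that share 4 groups, and such genes were looked for among all tested genes.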

How the data were processed

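RNA-seq was made from 12 libraries of primary mouse lung endothelial cells, 3 in each of 4 groups. Extraction used RNeasy Plus and library preparation NEBNext Ultra reagents, per the labels' protocols. Per the submitters' processing notes, alignment used TopHat 2. FPKM values for 52655 transcripts were deposited by the authors. Genome build, annotation, quantifying tool and use of strand: not given in the sources used here.

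FPKM values were added up within each gene identifier. Genes averaging 1 FPKM or more over the libraries (11378) entered a limma 3.58.1 fit under R 4.3.3 on log2(FPKM + 1), with a mean per group, a variance trend and 8 residual degrees of freedom. P-values were adjusted by Benjamini-Hochberg within a comparison, at a threshold of 0.05. A fold change on this scale understates the change of low genes. Depth is an estimate: 7997 genes with 1 transcript were used, their lengths were shortened by 275 bases, and 89.0 to 91.5% of their low values then fell within 0.1 of a whole fragment. Since this rests on an assumed length, no count test was run. Gene positions are those of GENCODE M21 (GRCm38), in which 95.2% of transcript identifiers were found. Promoter windows are from RefSeq GRCm38.p6 for 6 of the 7 genes, with bases after the start site left out, and Lyve1 had no entry.

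All 7 genes are named. Named from the lists of lymphatic development genes and of partners were up to 6 genes with the smallest p in the averaged comparisons and up to 4 of highest level, and up to 3 genes of similar pattern per member. Members and lists were chosen with earlier results of these data known. Alternatives changed the pseudocount (to 0.1), the filter (none, or 5 FPKM), the scaling (quantiles, or equal medians) and the libraries fitted (those compared, or all but 1). Others added a replicate block, dropped the variance trend, or used the transcript of highest mean level. In this last run p-values were adjusted over 18090 transcripts and not over the tested genes. An alternative chosen after seeing the data left out the third library of both hypoxia groups.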

Additional observations from a re-analysis of the deposited data

How the results depend on the processing

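Of 18 member results past the threshold, 13 held in every alternative and 5 were lost in at least 1. Of 31 that did not pass, 11 passed in at least 1, and no called value changed sign in any alternative run. Little pairing by replicate number was seen over all tested genes. Deviations of same-numbered libraries from their group means correlated at -0.0841 to 0.167 over 18 pairs, with 1 pair over 0.1. A correlation over all genes cannot exclude a pairing that touches only some of them. With the replicate number as a block, 5 in place of 3 members were called for DKO against WT in hypoxia, and 4 in place of 2 for the average hypoxia response. Leaving out 1 library gave 2 to 5 members for the average hypoxia response (5 without the third WT hypoxia library, 4 without the third DKO hypoxia library) and, for the average genotype difference, as few as 3 in place of 5, without the third WT normoxia library. In the main fit 16.1%, 45.6% and 19% of all tested genes were called for these 3 comparisons, in the order named. Shares in the altered runs are not given here, so the changed member counts are not read as particular to these genes. Leaving out the third library of both hypoxia groups, an alternative chosen after seeing the data, gave 6 in place of 3 members for hypoxia in WT cells and 5 in place of 2 for the average hypoxia response. With those libraries left out, 19.5% and 42% of all tested genes were called for these comparisons. The causes were not tested.

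Over all genes, the count for the difference of the hypoxia responses was 22, against 12 with quantile normalization, 6 with no variance trend, 1 with the replicate block, 0 of 18090 transcripts with the transcript of highest level, 1 to 39 with 1 library left out and 2 without the third library of both hypoxia groups. For DKO against WT in normoxia it was 929, against 616 with the libraries of the comparison alone, 583 of 18090 transcripts in the fit of single transcripts, 617 without the second DKO normoxia library and 583 without the second WT normoxia library. For DKO against WT in hypoxia it was 1832, against 1185 without the first DKO hypoxia library, 1175 without the second WT hypoxia library and 945 without the third library of both hypoxia groups. For hypoxia in WT cells it was 2370, against 1382 and 1495 without the first and the second WT hypoxia library. At 7 to 67 estimated fragments, changes of Ccl21a were not resolved.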
